A study of Danio rerio with 55 samples.

Results

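Wild-type zebrafish embryos at 24 hours post-fertilization (hpf), near the end of segmentation, were compared with wild-type embryos at 3.3 hpf, when the blastula has just begun to transcribe its own genome. The comparison used 11 of the 55 samples of the series, namely the 6 wild-type RNA-seq libraries of 24 hpf and the 5 of 3.3 hpf, and no mutant library entered it. In both groups whole embryos of a mixed TU/TLF background were pooled per sample and left untreated. They descended from germ cell transplantation animals that carried wild-type germ cells. The paper states that 24 hpf embryos were dechorionated by hand and 3.3 hpf embryos were not, so handling differed with stage. Pools of 24 hpf embryos could also be smaller. The study set these wild-type embryos beside mutants that lacked maternal and zygotic Ezh2, the methyltransferase of Polycomb repressive complex 2. A further 5 wild-type libraries of 0 hpf are given beside the results for reference only. The labels do not say whether the samples of a stage came from separate clutches, so the p-values measure the spread between these samples.

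A newly fertilized zebrafish egg runs on messenger RNA and protein laid down by the mother in the oocyte. During the blastula stages the embryonic genome is switched on, maternal transcripts are degraded, and the rapid cleavage cycles lengthen. Gastrulation and segmentation then set up the body axis, and by 24 hpf the embryo has twitching somitic muscle, a beating heart tube, primitive red blood cells, optic cups and a patterned central nervous system. In libraries from whole embryos, fewer cells of a type and less RNA per cell cannot be told apart.

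The 24 hpf libraries held 6304827 to 23394029 counts on genes and the 3.3 hpf libraries 8126614 to 21839884. Of 32266 genes, 18741 had enough counts to be tested. Levels are given as CPM, counts scaled to a common library total with TMM factors. CPM takes no account of transcript length, so that levels were compared between stages. Genes called most abundant below are those of highest CPM, which does not rank their numbers of transcripts. Fold changes are log2 values of 24 hpf over 3.3 hpf from edgeR's quasi-likelihood test, with their standard error (SE) and the Benjamini-Hochberg adjusted p over all genes tested. A gene was called where the adjusted p was under 0.05 and the log2 fold change was at least 1 in size. The median log2 fold change of all genes tested was 0.22. It lay at 0.35 with DESeq2's size factors, at -0.05 with library size alone and at 0.56 with upper-quartile scaling, and fold changes are best read against that shift.

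Stage was the largest difference between the libraries and accounted for 85.3% of the variance on the first principal component. The second component held 6.93% and separated the libraries of each stage by number. At 24 hpf, libraries 1 to 3 had 4.80% to 15.4% of reads unmapped, against 20.3% to 30.2% in libraries 4 to 6. At 3.3 hpf, libraries 1 and 2 had 7.14% and 15.9% of reads unmapped, and libraries 3 to 5 had 24.1% to 41.4%. These sets were noticed after seeing the data, and values within the sets are given beside some of the results that they change. The lower-numbered set below means libraries 1 to 3 of 24 hpf and 1 and 2 of 3.3 hpf, and the higher-numbered set the others. The labels give no collection or sequencing dates, so stage and any batch that goes with it cannot be told apart. At 24 hpf alone, some libraries were made with another kit and read single-end on another instrument. The labels do not say which, so their place in the sets is not known.

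The transcriptome was remodelled on a large scale. At 24 hpf 7122 genes (38.0% of those tested) were called higher and 5122 (27.3%) were called lower, and 6497 were not called. Rises were larger than falls: the median log2 fold change was 3.98 over the genes called higher and -1.91 over those called lower. Among the genes called higher, 2643 rose at least 32-fold, whereas 348 of the genes called lower fell by that much. In the 24 hpf libraries the genes called higher held 52.2% to 59.2% of all gene counts, against 7.77% to 8.79% in the 3.3 hpf libraries. The genes called lower held 9.27% to 11.1% of counts at 24 hpf and 49.0% to 52.4% at 3.3 hpf.

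Nearly all genes called lower had counts in the egg. Of the genes called lower, 5098 (99.5%) averaged at least 1 CPM in the 0 hpf libraries, which were scaled by their own totals. The same held for 3012 (42.3%) of the genes called higher and for 76.3% of all genes tested. Among the genes called higher, 854 had no more than 3 counts over all 3.3 hpf libraries together. Among the genes called lower, 31 were as scarce at 24 hpf.

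**Figure D1:**
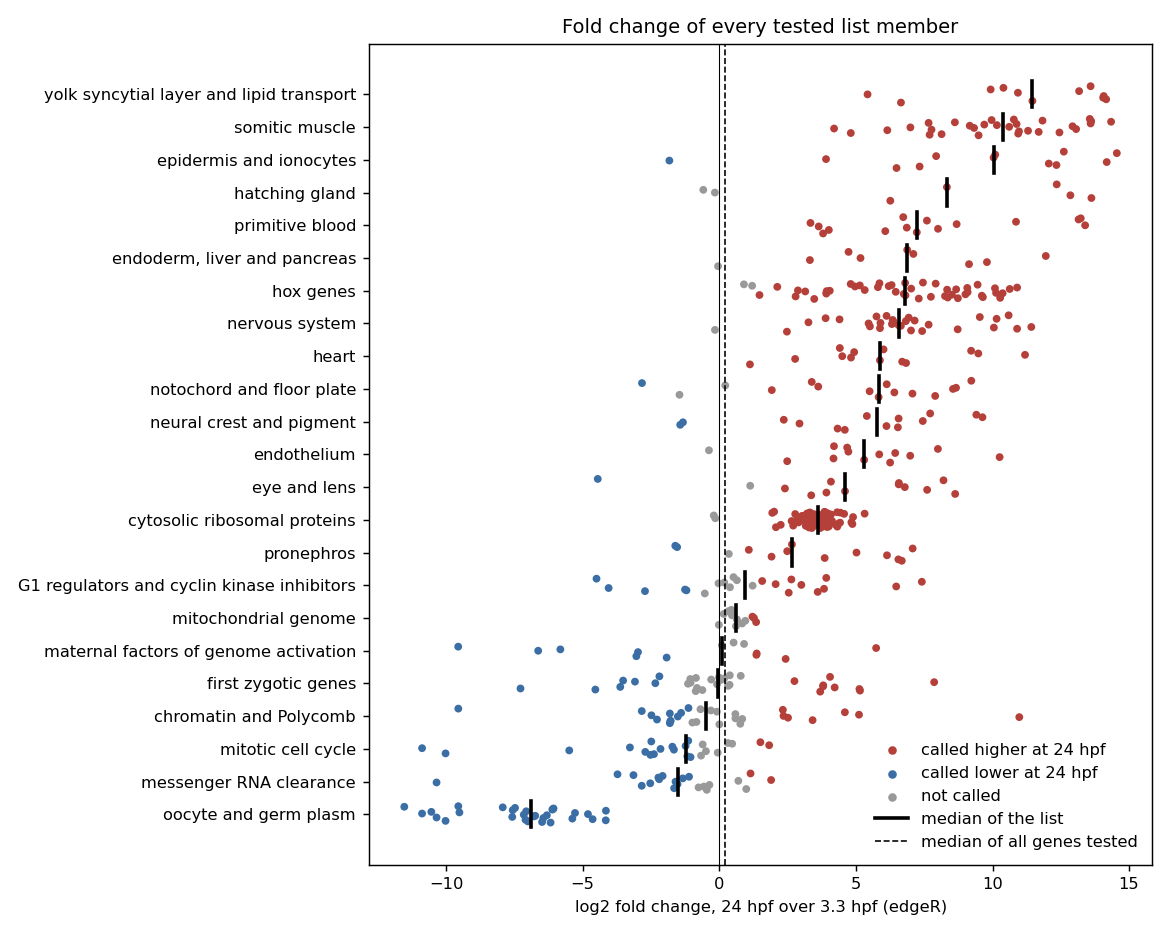
Log2 fold change of 24 hpf over 3.3 hpf (horizontal axis) for every tested member of the 23 gene lists (rows, ordered by median). Red points were called higher, blue points lower and grey points were not called; black bars are list medians and the dashed line is the median of all genes tested, 0.22. All 11 tested genes of the yolk syncytial layer and all 30 of somitic muscle lie to the right, and all 30 tested oocyte and germ plasm genes lie to the left.

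Genes of organs and tissues rose nearly throughout. The 13 lists of tissue genes included the hox family, with 45 of 47 genes called higher. Over all 13 lists, counting each gene once, 212 of the 230 members tested (92.2%) were called higher and 7 were called lower. The shares over all genes tested were 38.0% and 27.3%. The median log2 fold change of the 230 members was 6.71. It was 6.69 with genes whose 3.3 hpf libraries were all at 0 set to a floor of 3 counts over the group. Of 251 identifiers in these lists, 21 had too few counts for the test. A tissue gene that passed the filter through its 24 hpf libraries alone had to differ, so these shares describe the lists and carry no test. Symbols are printed as the name table gives them, often in the human form, and an identifier is added where several zebrafish genes share a symbol. Counts of near-identical copies are uncertain, because only uniquely mapped reads were counted.

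Somitic muscle showed some of the largest rises. All 30 tested genes of 35 were called higher, with a median log2 fold change of 10.4 and a range of 4.20 to 14.3. The list took 0.962% to 3.20% of gene counts at 24 hpf, against 0.00264% to 0.00655% at 3.3 hpf. MYL11 (ENSDARG00000053254), a regulatory light chain of fast skeletal myosin, had a lowest, median and highest level of 806, 1763 and 2491 CPM at 24 hpf. At 3.3 hpf its 5 libraries had 0.252, 0.18, 0.0803, 0 and 0 CPM, and its log2 fold change was 13.59 ± 0.62 (SE; edgeR, adjusted p = 1.25e-09). The calcium pump of the sarcoplasmic reticulum, atp2a1, stood at 769, 1892 and 2295 CPM at 24 hpf, against 0.839, 0.45, 0.964, 0.75 and 0.536 CPM at 3.3 hpf. Every 24 hpf library lay above every 3.3 hpf library for both genes, as in 36.2% of all genes tested. Both tested titin genes, which encode the giant spring protein of the sarcomere, rose as well. TTN (ENSDARG00000000563) had 205, 3688 and 4925 CPM at 24 hpf as its lowest, median and highest level, and 2.39, 1.26, 8.03, 4.07 and 7.29 CPM at 3.3 hpf. TTN (ENSDARG00000028213) had 216, 3714 and 5297 CPM at 24 hpf and 2.81, 11.9, 28.5, 9.44 and 25 CPM at 3.3 hpf. For both, the lowest value came from 24 hpf library 2, which also had the lowest share of counts on the muscle list, although MYL11 was lowest in library 3.

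**Figure D2:**
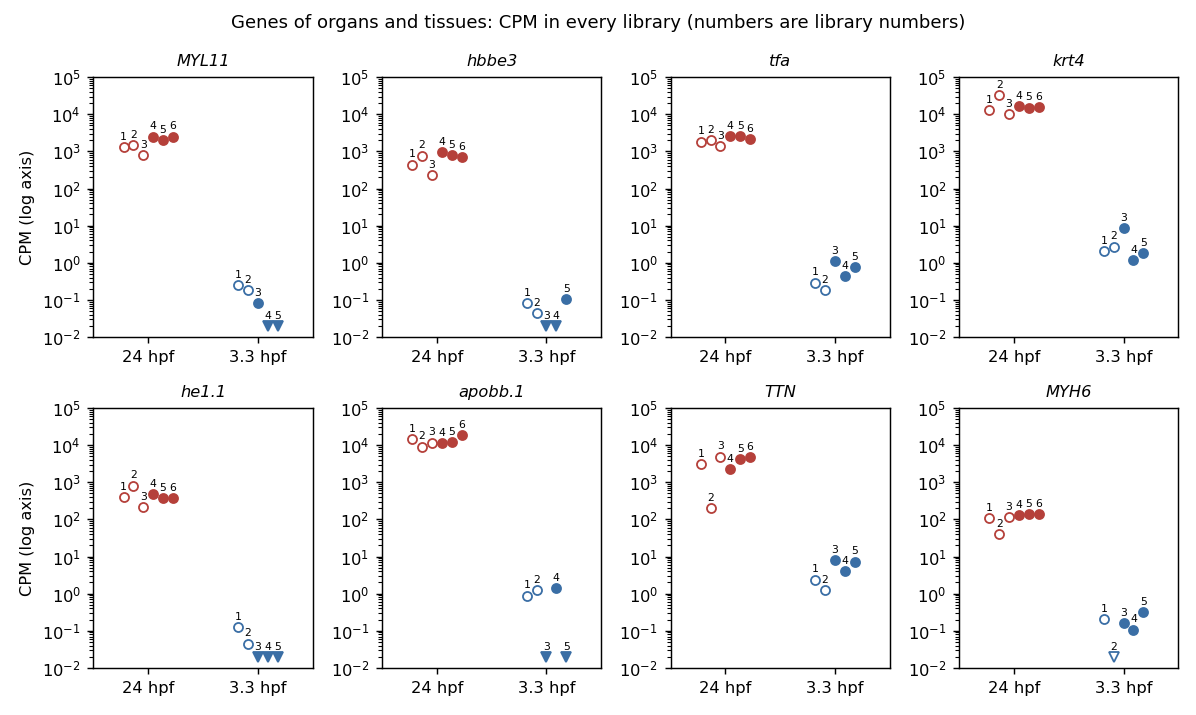
CPM (log axis) in each of the 6 libraries of 24 hpf (red, left) and the 5 of 3.3 hpf (blue, right) for 8 genes of the muscle, blood, endodermal, epidermal, hatching gland, yolk syncytial layer and heart lists. Small numbers are library numbers, open points are libraries 1 to 3 of 24 hpf and 1 and 2 of 3.3 hpf, and triangles at the bottom mark 0 CPM; the TTN panel shows ENSDARG00000000563, lowest at 205 CPM in 24 hpf library 2. In all 8 panels every 24 hpf library lies above every 3.3 hpf library, as in 36.2% of all genes tested.

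The heart list rose with smaller steps. All 13 tested genes of 16 were called higher, and their median log2 fold change was 5.88. MYH6 (ENSDARG00000079564), a cardiac myosin heavy chain, had 40.8, 122 and 139 CPM at 24 hpf as lowest, median and highest level, and 0.21, 0, 0.161, 0.107 and 0.322 CPM at 3.3 hpf, a log2 fold change of 9.48 ± 0.56 (edgeR, adjusted p = 9.25e-09). The transcription factor gene GATA6 rose by 4.41 ± 0.75 on the log2 scale and TNNT2 (ENSDARG00000020610), cardiac troponin T, by 4.82 ± 0.68. MYL7, the cardiac myosin light chain, gave an unusual pattern. It had 30.7, 54.5 and 73.3 CPM at 24 hpf, against 0, 0, 6.99, 15.9 and 17.2 CPM at 3.3 hpf. At 0 hpf libraries 1 and 2 also had 0 counts and libraries 3, 4 and 5 had 60, 154 and 126 counts, so that the split by library number was present at 0 and 3.3 hpf alike. Its log2 fold change of 2.77 ± 1.13 (edgeR, adjusted p = 0.0407) lost its call in 10 of the alternative fits, in which it lay between 2.48 and 3.19. MYL7 was called higher within each set of libraries, at 2.42 in the higher-numbered set. In the lower-numbered set its 3.3 hpf libraries were at 0 counts, so that no fold is given.

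Primitive blood genes were nearly absent at 3.3 hpf. All 15 tested genes of 19 were called higher with a median log2 fold change of 7.23. The embryonic globin gene hbbe3 had 231, 742 and 950 CPM at 24 hpf, against 0.0839, 0.045, 0, 0 and 0.107 CPM at 3.3 hpf, and rose by 13.39 ± 0.61 on the log2 scale (edgeR, adjusted p = 1.18e-09). The alpha globin gene hbae3 had 33289 counts over the 24 hpf libraries and 3 over the 3.3 hpf libraries, a ratio in CPM of 12760 with a 95% counting interval of 4365 to 61860. HBE1 (ENSDARG00000087390) had 0 counts at 3.3 hpf and was at least 3227-fold higher at 24 hpf against a floor of 3 counts over the group. SLC4A1 (ENSDARG00000012881), the anion exchanger of the red cell membrane, stood at 39.2, 85.2 and 106 CPM at 24 hpf, and at 0.107 to 1.05 CPM at 3.3 hpf. TAL1, a transcription factor of blood progenitors, rose too, averaging 21.5 CPM at 24 hpf and 0.0599 CPM at 3.3 hpf (named after its value was seen).

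Endothelial genes rose in 12 of 13 cases, with a median log2 fold change of 5.30. The tight junction gene CLDN5 (ENSDARG00000043716) was even across libraries, at 81.7, 105 and 133 CPM at 24 hpf and 0.0839, 0.0901, 0, 0.107 and 0.107 CPM at 3.3 hpf (log2 fold change 10.26 ± 0.33, edgeR, adjusted p = 1.11e-10). The VEGF receptor gene kdrl rose by 4.20 ± 0.23, cdh5, the cadherin of endothelial junctions, by 4.72 ± 0.40, and the receptor kinase gene TIE1 by 6.25 ± 0.46 on the log2 scale. ERG, a transcription factor gene of blood vessels, was not called and averaged 6.94 CPM at 24 hpf and 9.03 CPM at 3.3 hpf (named after its value was seen).

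In the nervous system list 28 of 29 genes were called higher and the median log2 fold change was 6.57. ELAVL3, which encodes an RNA-binding protein of neurons, had 71.9, 89.9 and 177 CPM at 24 hpf, against 0, 0.045, 0.321, 0.107 and 0.107 CPM at 3.3 hpf (10.05 ± 0.59, edgeR, adjusted p = 8.66e-09). The Notch ligand gene dlb stood at 128, 185 and 215 CPM at 24 hpf and at 0.107 to 0.723 CPM at 3.3 hpf. The exception was one of 2 genes for stathmin, a regulator of microtubules. STMN1 (ENSDARG00000004169) had 151, 292 and 358 CPM at 24 hpf and 202, 234, 316, 433 and 323 CPM at 3.3 hpf, and these ranges overlapped (-0.16 ± 0.27, edgeR, adjusted p = 0.608). The other, STMN1 (ENSDARG00000033655), had 55.7, 127 and 175 CPM at 24 hpf, against 0.797, 2.12, 2.97, 0.536 and 0.858 CPM at 3.3 hpf, and rose by 6.32 ± 0.52.

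Neural crest and pigment genes rose in 12 of 14 tested cases, beside 2 that fell. The pigment synthesis gene gch2 ranged from 57.6 CPM in 24 hpf library 3 to 589 CPM in library 4, and from 0.168 to 0.883 CPM at 3.3 hpf. The melanosome matrix gene pmela had 30.7, 65.3 and 98.7 CPM at 24 hpf, against 0.0839, 0.135, 0, 0 and 0.107 CPM at 3.3 hpf. DCT, a melanin synthesis enzyme, rose by 4.33 ± 0.38 and TFAP2A, an early factor of the crest, by 2.36 ± 0.40. The pair that fell were low at both stages. MITF (ENSDARG00000037833) averaged 0.751 CPM at 24 hpf and 2.03 CPM at 3.3 hpf, whereas MITF (ENSDARG00000003732), the other gene of the melanocyte factor MITF, averaged 12.5 CPM at 24 hpf and 0.472 CPM at 3.3 hpf and was called higher. MITF (ENSDARG00000037833) was not called in the lower-numbered set (-1.32). The receptor kinase gene ltk, needed for iridophores, had 3.08 to 5.53 CPM at 24 hpf and 7.87 to 14.1 CPM at 3.3 hpf, and its call was lost with upper-quartile scaling (-0.99).

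Eye and lens genes gave 11 rises and 1 fall among 13 tested genes of 17. The retinal factor gene rx1 had 10.5, 17.6 and 35.2 CPM at 24 hpf, against 0, 0, 0, 0.214 and 0.214 CPM at 3.3 hpf. Lens genes varied among the 24 hpf libraries. MIP (ENSDARG00000037285), the water channel of the lens, had 0.974 CPM in library 2 and 1.71 CPM in library 3, and 9.81 to 19.3 CPM in the other 4. The crystallin gene cryba1b was likewise lowest in libraries 2 and 3, at 2.98 and 4.28 CPM, and ranged from 13.3 to 26.3 CPM in the others. CRYGN (ENSDARG00000102129), a gamma N crystallin gene, went the other way, with 0.113 to 0.595 CPM at 24 hpf and 2.48, 2.88, 5.14, 11.7 and 15 CPM at 3.3 hpf (-4.45 ± 0.60, edgeR, adjusted p = 1.62e-05).

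Axial and renal genes were more mixed. Of 15 notochord and floor plate genes, 12 were called higher and 1 lower. The notochord collagen gene COL2A1 (ENSDARG00000069093) differed widely among libraries, with 63.8 CPM in 24 hpf library 2, 987 CPM in library 3 and 190 to 402 CPM in the other 4, against 0.45 to 1.53 CPM at 3.3 hpf. A second COL2A1 gene (ENSDARG00000011407) and COL9A2, of another cartilage-type collagen, rose by 7.90 ± 0.73 and 6.41 ± 1.24 on the log2 scale. The guidance cue gene NTN1 (ENSDARG00000105112) had 63.3, 145 and 180 CPM at 24 hpf and 0.107 to 0.482 CPM at 3.3 hpf. The forkhead gene foxa fell, with 5.18, 7.52 and 12.6 CPM at 24 hpf, against 85.1, 94.7, 44.2, 36.9 and 35.5 CPM at 3.3 hpf (-2.83 ± 0.34, edgeR, adjusted p = 4.8e-06). In the pronephros list, the embryonic kidney, 10 of 13 tested genes were called higher and 2 lower, with a median log2 fold change of 2.66. CDH17, a cadherin of the tubule, had 77.5, 85.4 and 119 CPM at 24 hpf, and 0.214 to 1.55 CPM at 3.3 hpf. The sodium pump gene atp1a1a.4 had 57.9, 97.6 and 116 CPM at 24 hpf, and 0.107 to 1.47 CPM at 3.3 hpf. The phosphate transporter gene SLC20A1 (ENSDARG00000010641) was already at 30.4 to 58.2 CPM at 3.3 hpf, and stood at 129 to 231 CPM at 24 hpf. The ion channel gene TRPM7 fell by 1.54 ± 0.45 with overlapping groups, and NPHS1, the nephrin of the slit diaphragm, fell by 1.61 ± 0.30.

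The most abundant genes of the endodermal list included those of plasma proteins, and 8 of 9 tested genes of 12 were called higher. Whole-embryo libraries do not show which tissue expressed them. The transferrin gene tfa had 1369, 2094 and 2553 CPM at 24 hpf, against 0.294, 0.18, 1.12, 0.429 and 0.751 CPM at 3.3 hpf, and rose by 11.95 ± 0.51 on the log2 scale (edgeR, adjusted p = 7.71e-10). FGB, the beta chain of fibrinogen, had 49.7, 97.4 and 107 CPM at 24 hpf, and 0 to 0.536 CPM at 3.3 hpf. CP, the copper carrier ceruloplasmin, had 2210 counts at 24 hpf and 2 counts at 3.3 hpf. The liver factor gene PROX1 rose by 7.10 ± 0.59. The hormone genes ins, for insulin, and gcga, for glucagon, had 94 and 57 counts over the 24 hpf libraries, against 17 and 1 over the 3.3 hpf libraries, and were too scarce to be tested (named after their values were seen).

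Keratin genes rose to high CPM. Of 12 epidermal genes, 11 were called higher, and the list took 1.43% to 3.53% of gene counts at 24 hpf, against 0.113% to 0.154% at 3.3 hpf. The keratin gene krt4 had 10080, 15470 and 32300 CPM at 24 hpf, against 2.06, 2.75, 8.75, 1.18 and 1.82 CPM at 3.3 hpf (12.34 ± 0.74, edgeR, adjusted p = 1.08e-08). The keratin genes krt8 and krt5 rose by 7.94 ± 0.67 and 10.10 ± 0.94. All 3 were highest in 24 hpf library 2, the library with the lowest share of counts on muscle genes. The cell adhesion gene epcam fell, and was abundant at both stages, with 222, 351 and 457 CPM at 24 hpf and 1029 to 1333 CPM at 3.3 hpf (-1.83 ± 0.19). In the hatching gland, whose enzymes digest the egg envelope, 5 of 7 genes were called higher. The hatching enzyme gene he1.1 had 217, 386 and 814 CPM at 24 hpf, against 0.126, 0.045, 0, 0 and 0 CPM at 3.3 hpf. The other hatching enzyme gene, he1.2, had 23945 counts at 24 hpf and 1 count at 3.3 hpf, and ctslb, a cathepsin, had 11987 counts and 2 counts. XBP1, a factor of secretory cells, was not called, with 263 to 425 CPM at 24 hpf and 275 to 440 CPM at 3.3 hpf.

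The yolk syncytial layer, an extraembryonic tissue that exports yolk lipid, gave the highest list median, 11.5. All 11 tested genes of 13 were called higher, beside 38.0% of all genes tested. The list took 1.77% to 2.75% of gene counts at 24 hpf, against 0.00051% to 0.0135% at 3.3 hpf. The apolipoprotein gene apobb.1 had 9060, 11990 and 18300 CPM at 24 hpf, against 0.881, 1.26, 0, 1.39 and 0 CPM at 3.3 hpf (14.07 ± 0.89, edgeR, adjusted p = 1.63e-08). APOB and apoa1b, which also encode lipoprotein components, rose by 10.93 ± 0.52 and 13.59 ± 0.66. The apolipoprotein gene apoeb rose less, by 5.43 ± 1.06, and was the one with clear counts at 3.3 hpf. It had 1308, 2249 and 3080 CPM at 24 hpf, against 3.69, 1.22, 115, 30.9 and 104 CPM at 3.3 hpf, with libraries 3 to 5 well above libraries 1 and 2.

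The hox genes, which give segments their identity along the body axis, rose as a family. Of 47 genes, 45 were called higher (95.7%) and none lower, beside 38.0% and 27.3% of all genes tested. The median log2 fold change was 6.81, and the range over the 4 scalings was 44 to 45 called. HOXB9 had 62, 64.7 and 75.6 CPM at 24 hpf, against 0, 0, 0.161, 0 and 0.107 CPM at 3.3 hpf. HOXA3 and hoxc3a averaged 65.8 ± 8.77 and 60.0 ± 5.18 CPM (SD, n = 6) at 24 hpf, and 0.282 ± 0.261 and 0.489 ± 0.231 CPM (n = 5) at 3.3 hpf. HOXB3 (ENSDARG00000029263) rose by 9.61 ± 0.41. Every 24 hpf library lay above every 3.3 hpf library for these 4 genes, as in 36.2% of all genes tested.

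**Figure D3:**
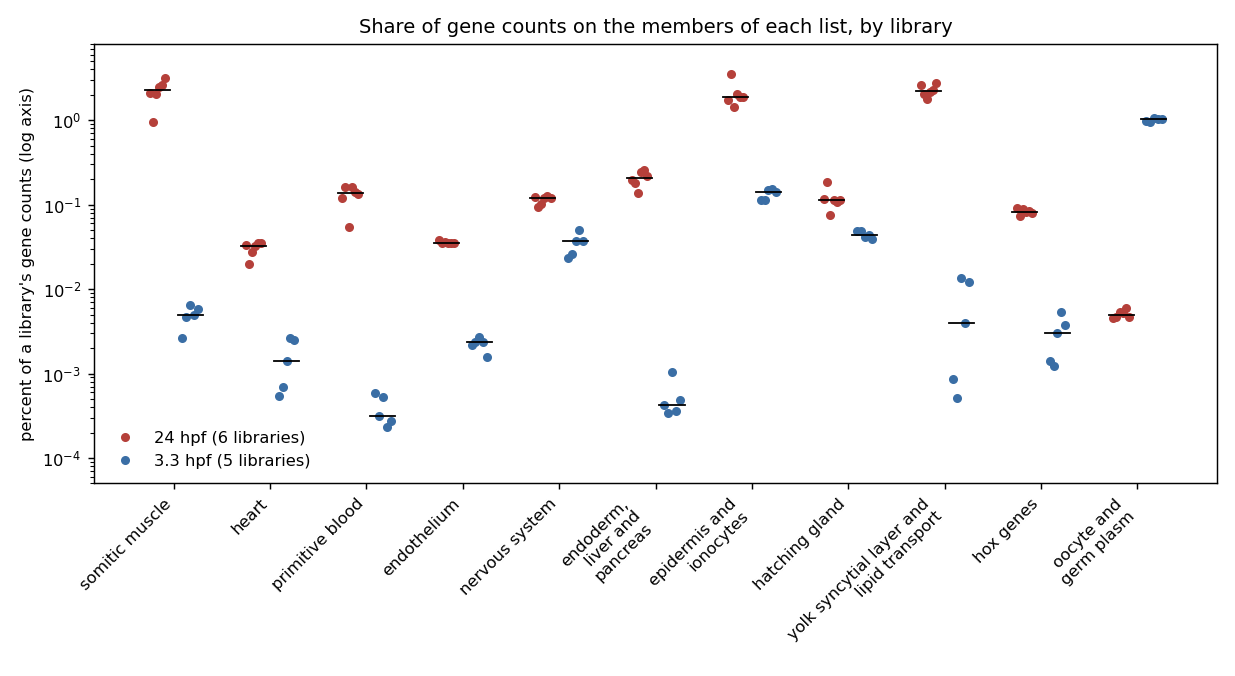
Percent of each library's gene counts (log axis) that fell on the members of 11 gene lists at 24 hpf (red, left of each pair, 6 libraries) and at 3.3 hpf (blue, right, 5 libraries), with black bars at the medians. The stages do not overlap in any list; the oocyte and germ plasm list runs opposite to the rest, with medians of 0.00494% at 24 hpf and 1.03% at 3.3 hpf.

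Across the genome, the 10 largest fitted rises among genes with a symbol included an apolipoprotein, cathepsins, a keratin and a fast myosin. Most of the 10 had 0 counts at 3.3 hpf, where the fitted fold depends on a small count that edgeR adds. Their order, and which genes fall within the 10, are therefore loose. PLA2G12B, a phospholipase family gene, had 280, 600 and 813 CPM at 24 hpf and 0 counts in all 5 libraries of 3.3 hpf, which makes it at least 15440-fold higher. The apolipoprotein gene apoa4b.1 had 188, 617 and 781 CPM at 24 hpf and was at least 16150-fold higher. A cluster of cathepsin L genes stood out: zgc:174855, si:dkey-26g8.5 and si:dkey-269i1.4, listed in RefSeq under the synonym ctsl, together with ctslb.4 and si:dkey-239j18.2, had 16181 to 23862 counts each at 24 hpf and 0 at 3.3 hpf. They were at least 6201-fold to 9144-fold higher. DAO, an amino acid oxidase, was at least 6956-fold higher. The fast myosin gene myhz1.3 had 97568 counts at 24 hpf and 3 at 3.3 hpf, and the keratin gene cyt1 had 73178 and 2. The annexin gene anxa1c, with 40920 counts at 24 hpf and 2 at 3.3 hpf, completed the 5 most abundant genes that were near absence at 3.3 hpf.

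Oocyte and germ plasm transcripts were gone or nearly gone. All 30 tested genes of 32 were called lower, beside 27.3% of all genes tested, and the median log2 fold change was -6.90 with a range of -11.5 to -4.15. In every one of them each 24 hpf library lay below each 3.3 hpf library, as in 27.3% of all genes tested. The list held a median of 1.13% of gene counts at 0 hpf, 1.03% at 3.3 hpf and 0.00494% at 24 hpf. The remaining 2 genes were too scarce to be tested, with 16 counts of zp2.1 at 24 hpf and 263 at 3.3 hpf, and 72 and 36 counts of SYCP3. The symbol buc denotes Bucky ball, which organizes the germ plasm of the oocyte; its transcript showed the largest fall of any gene with a symbol. It had 0, 0.188 and 0.602 CPM at 24 hpf as lowest, median and highest level, against 998, 924, 873, 1010 and 979 CPM at 3.3 hpf (-11.53 ± 0.41, edgeR, adjusted p = 2.3e-10). The oocyte linker histone gene h1m had 1.03, 2.17 and 2.94 CPM at 24 hpf, against 1511, 1474, 1620, 1436 and 1689 CPM at 3.3 hpf. The zinc finger gene cth1 had 0 to 0.602 CPM at 24 hpf and 401 to 865 CPM at 3.3 hpf, with libraries 1 and 2 higher than libraries 3 to 5.

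The smallest falls in the list were those of 2 germ cell genes. DDX4, the germ cell helicase Vasa, averaged 12.2 CPM at 24 hpf and 217 CPM at 3.3 hpf, a log2 fold change of -4.16, and NANOS3, a translational repressor of germ cells, averaged 4.84 CPM at 24 hpf and 85.3 CPM at 3.3 hpf, a log2 fold change of -4.15. DAZL, another germ cell RNA-binding protein, averaged 0.859 CPM at 24 hpf and 156 CPM at 3.3 hpf. DND1, which protects germ cell transcripts, averaged 1.65 CPM at 24 hpf and 70.3 CPM at 3.3 hpf. These 4 genes were named after their values were seen.

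Over all genes with a symbol, the 10 largest falls included buc, cth1, CCNA1 and BTG4, whose levels are given in other paragraphs. At 0 hpf CCNA1 and BTG4 averaged 1790 and 1052 CPM. Outside the lists, the 10 included cldnd, ccnp, zgc:152986, zgc:113424 and si:ch211-145c1.1. The claudin gene cldnd had 0.274, 0.517 and 0.685 CPM at 24 hpf, against 808, 1113, 932, 868 and 826 CPM at 3.3 hpf (-10.90 ± 0.26, edgeR, adjusted p = 3.22e-11). The cyclin gene ccnp stood at 0.328, 0.469 and 1.37 CPM at 24 hpf, and at 603 to 782 CPM at 3.3 hpf. Of zgc:152986 a single count was left over the 24 hpf libraries, beside 4483 counts at 3.3 hpf. The genes zgc:113424 and si:ch211-145c1.1 had 10 and 6 counts at 24 hpf, against 19403 and 12460 counts at 3.3 hpf. No count of si:dkey-241l7.2 was left, against 1186 at 3.3 hpf, at least 344-fold lower at 24 hpf. KCNS3, a potassium channel subunit, and the genes si:dkeyp-46h3.8, POLR2E (ENSDARG00000074274) and si:ch211-284a16.4 had 3 counts each at 24 hpf, and 2568, 1792, 1150 and 898 counts at 3.3 hpf. They were named for their near absence at 24 hpf and are not among the 10 largest falls. Their log2 fold changes were -9.40, -8.50, -7.90 and -7.81. For KCNS3 the ratio was 745 with a 95% counting interval of 255 to 3613.

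**Figure D4:**
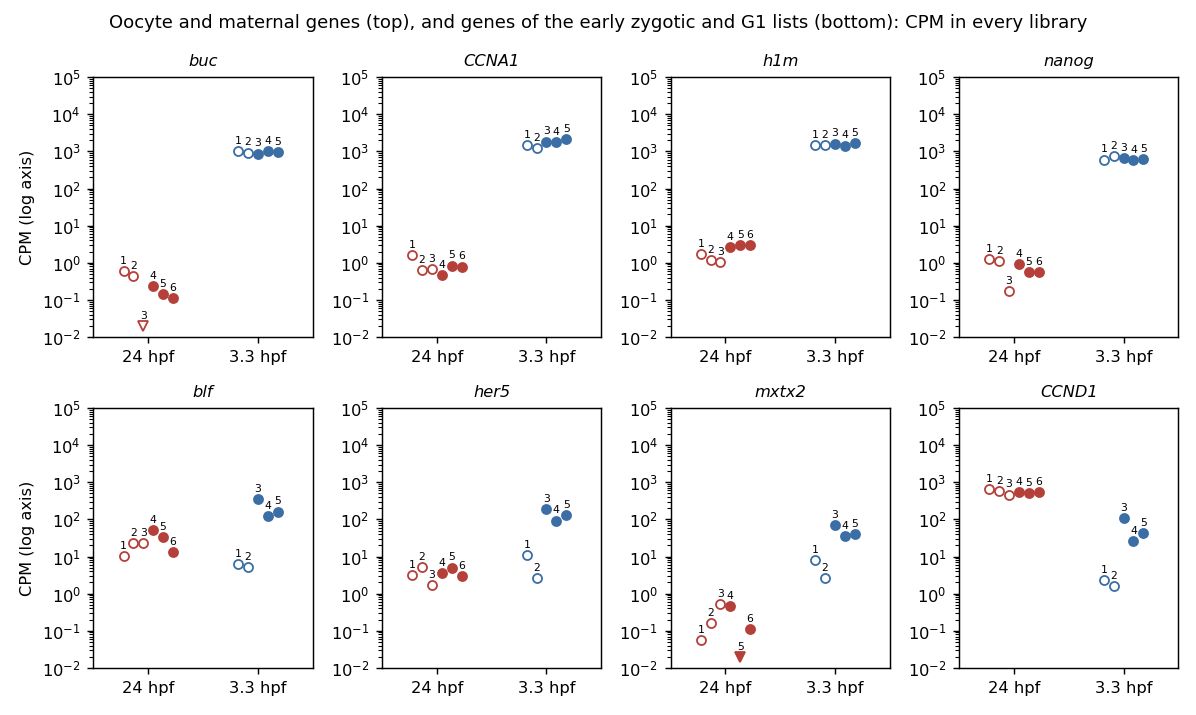
CPM (log axis) in each library of 24 hpf (red, left) and 3.3 hpf (blue, right) for the oocyte and maternal genes buc, CCNA1, h1m and nanog (top) and for blf, her5, mxtx2 and CCND1 (bottom). Numbers, open points and triangles are as in the plot of tissue genes. In the top row every 24 hpf library lies far below the 3.3 hpf libraries, and in the bottom row libraries 1 and 2 of 3.3 hpf lie below libraries 3 to 5, at 6.38 and 5.27 CPM against 121 to 357 CPM for blf.

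The list of maternal factors linked to genome activation was broad and ran in both directions, although nanog, pou5f3 and sox19b all fell. Of its 13 tested genes 6 were called lower (46.2%) and 4 higher (30.8%), beside 27.3% and 38.0% of all genes tested. The sign of the median changed with the scaling, between -0.22 and 0.41. With reverse-strand counts the median was -1.85, and in the lower-numbered set -1.20. The pluripotency factor gene nanog had 0.171, 0.752 and 1.26 CPM at 24 hpf, against 599, 755, 668, 569 and 622 CPM at 3.3 hpf (-9.56 ± 0.34, edgeR, adjusted p = 2.13e-10). Its partner pou5f3 averaged 3.21 CPM at 24 hpf and 312 CPM at 3.3 hpf (named after its value was seen). The third partner, sox19b, fell less and remained present, with 80.2, 86.1 and 92.7 CPM at 24 hpf and 527, 650, 716, 738 and 764 CPM at 3.3 hpf (-2.98 ± 0.13). The RNA-binding protein gene YBX1 and CTNNB1, beta-catenin, ran against these. YBX1 had 587, 894 and 1824 CPM at 24 hpf, and 164 to 230 CPM at 3.3 hpf. CTNNB1 rose by 1.36 ± 0.26, and by 0.77 without 24 hpf libraries 1 to 3, where it was no longer called, nor was it in the higher-numbered set (0.99). The histone demethylase gene kdm6bb rose by 5.74 ± 0.57, and TCF7L1 (ENSDARG00000038159), a Wnt effector, by 1.37 ± 0.41 with overlapping groups. TCF7L1 was not called without 24 hpf libraries 1 to 3 (0.96) or in the lower-numbered set (0.97).

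Results for the list of first zygotic genes depended on which 3.3 hpf libraries were used. Of its 32 tested genes, 11 averaged at least 1 CPM at 0 hpf and so were already present in the egg. The list of 39 genes took 0.0229% and 0.0174% of gene counts in 3.3 hpf libraries 1 and 2. In libraries 3, 4 and 5 it took 0.157%, 0.0736% and 0.098%. It took 0.0235% to 0.0315% at 24 hpf. At 0 hpf the share was 0.0151% to 0.0195%, close to that of 3.3 hpf libraries 1 and 2. With all libraries 9 of the 32 tested were called higher and 7 lower, near the background shares of 38.0% and 27.3%. Within the libraries numbered 4 to 6 at 24 hpf and 3 to 5 at 3.3 hpf, 9 of 34 were called higher and 18 lower, and the median log2 fold change was -1.35. Within libraries 1 to 3 of 24 hpf and 1 and 2 of 3.3 hpf, 22 of 34 were called higher and 6 lower, with a median of 2.73. The 3.3 hpf libraries 1 and 2 were the deepest of the stage, with 21839884 and 20783180 counts on genes, against 8126614 to 11093212 in libraries 3 to 5, and also had the lower shares of unmapped reads given above. The part of either in this split was not tested. Whether libraries 1 and 2 were slightly younger, or belonged to another batch, was not tested either. Of the 7 genes not tested, dharma, an inducer of the organizer, had 256 counts at 3.3 hpf and none at 0 or 24 hpf, and nnr had 15 counts at 0 hpf, 1982 at 3.3 hpf and 4 at 24 hpf (both named after their values were seen).

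Some single genes showed the same split. The zinc finger gene blf had 10.4, 23.1 and 51.5 CPM at 24 hpf, against 6.38, 5.27, 357, 121 and 161 CPM at 3.3 hpf. Its log2 fold change was -2.34 ± 0.92 with all libraries (edgeR, adjusted p = 0.0359), -2.70 in the higher-numbered set and 1.65 in the lower-numbered set, so that its direction turned. The call of blf was also lost in further fits. Among them were the sets as a term (-1.08), the replicate number as a term (-0.94) and the fit without 3.3 hpf library 3 (-1.535). The Hairy-related repressor gene her5 had 1.71, 3.35 and 5.25 CPM at 24 hpf, and 10.7, 2.66, 191, 92.4 and 128 CPM at 3.3 hpf (-4.54 ± 0.87). It fell by 5.17 in the higher-numbered set and was not called in the lower-numbered set, at -0.99. The homeobox gene mxtx2, a factor of the yolk syncytial layer, fell in both sets, with 0 to 0.514 CPM at 24 hpf and 8.1, 2.57, 69.8, 35.7 and 39.4 CPM at 3.3 hpf (-7.28 ± 0.93, edgeR, adjusted p = 9.75e-06). The Nodal co-receptor gene tdgf1 and the Nodal ligand gene ndr1 fell by 3.63 ± 0.31 and 3.09 ± 0.58. The organizer gene GSC fell by 3.52 ± 0.58. In the higher- and lower-numbered sets the values were -4.04 and -2.92 for tdgf1, -3.95 and -2.22 for ndr1, and -4.28 and -2.02 for GSC. The factor gene klf2b was not called and its groups overlapped.

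Some genes were higher at 3.3 hpf than at 0 or 24 hpf. No stage between 3.3 and 24 hpf was sampled, so the time of their highest level is not known. Among the 5122 genes called lower, 26 had at 3.3 hpf at least 10 times their 0 hpf mean and at least 1 CPM, 20 of them with a symbol. Genes that were not tested, such as nnr and dharma, are outside this count. The 2 most abundant beside blf, chosen after their values were seen, were drll.3 and si:zfos-44a5.1. The zinc finger gene drll.3 had 0.823, 1.39 and 2.9 CPM at 24 hpf, against 9.99, 1.4, 334, 143 and 185 CPM at 3.3 hpf, with overlapping groups. Its log2 fold change was -7.51 in the higher-numbered set and -1.29 in the lower-numbered set, where drll.3 was not called. The gene si:zfos-44a5.1 had 11 counts at 24 hpf, 5239 at 3.3 hpf and 24 at 0 hpf. The unnamed gene ENSDARG00000088395, noticed in the same way, had 0 counts at 0 hpf, 6123 at 3.3 hpf and 4 at 24 hpf, and averaged 84.6 CPM at 3.3 hpf.

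Of 23 genes of mitosis and its checkpoints, 15 were called lower (65.2%) and 2 higher (8.70%), beside 27.3% and 38.0% of all genes tested, and 11 were called lower with upper-quartile scaling. The list had a median log2 fold change of -1.23 that stayed below 0 under all 4 scalings (-1.51 to -0.90). Its members CCNA1 and WEE2 are also in the oocyte and germ plasm list, so their falls are not a separate result. CCNA1, the A-type cyclin of germ cells, had 0.47, 0.737 and 1.64 CPM at 24 hpf, against 1460, 1198, 1828, 1820 and 2128 CPM at 3.3 hpf (-10.88 ± 0.35, edgeR, adjusted p = 1.18e-10). CCNB1, a mitotic cyclin, had 161, 239 and 296 CPM at 24 hpf, and 1780 to 2473 CPM at 3.3 hpf. The proliferation genes mki67 and TOP2A were not called, with 691 to 1192 and 415 to 786 CPM at 24 hpf, and 510 to 831 and 512 to 832 CPM at 3.3 hpf. WEE1, an inhibitory kinase of Cdk1, and the phosphatase gene cdc25d were the 2 that rose. Among 22 regulators of G1, when a cell decides to divide, 10 were called higher (45.5%) and 5 lower (22.7%), shares near the 38.0% and 27.3% of all genes tested. CCND1, cyclin D1, had 464, 539 and 638 CPM at 24 hpf, against 2.35, 1.62, 108, 26.5 and 43.6 CPM at 3.3 hpf (3.92 ± 0.93). CCNE1, cyclin E, went the other way, with 23.4, 26.6 and 29.7 CPM at 24 hpf and 519 to 636 CPM at 3.3 hpf (-4.50 ± 0.13, edgeR, adjusted p = 6.82e-11). CDK2, the kinase it activates, fell by 1.25 ± 0.14 and the D cyclin gene ccnd3 by 4.05 ± 0.38. The growth arrest genes BTG2 and GADD45B (ENSDARG00000013576) fell by 1.2 ± 0.23 and 2.72 ± 0.62. In the lower-numbered set neither was called, at -0.97 for BTG2 and -0.60 for GADD45B, and BTG2 was not called with upper-quartile scaling (-0.88), nor was CDK2 (-0.92).

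Among genes that clear maternal messenger RNA, lower levels at 24 hpf were the more frequent call. Of 21 genes, 13 were called lower (61.9%), 2 higher (9.52%) and 6 were not called, beside 27.3% lower and 38.0% higher of all genes tested. The median log2 fold change was -1.53. With upper-quartile scaling 11 were lower and 4 higher. BTG4, an adaptor of the oocyte deadenylase, had 0, 0.506 and 0.685 CPM at 24 hpf, against 301, 367, 731, 779 and 532 CPM at 3.3 hpf (-10.35 ± 0.49). It is also in the oocyte and germ plasm list. The deadenylase subunit gene CNOT6 had 72.4, 89.5 and 160 CPM at 24 hpf and 239 to 459 CPM at 3.3 hpf, whereas its relative CNOT6L rose by 1.90 ± 0.31. The microRNA processing gene DGCR8 fell by 1.60 ± 0.13. The decapping enzyme gene DCP2 rose by 1.14 ± 0.23, a call that library-size scaling removed (0.86), and KHSRP, an RNA-binding protein that promotes decay, was not called.

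Of 28 Polycomb, DNA methylation and linker histone genes, 11 were called lower (39.3%) and 7 higher, beside 27.3% and 38.0% of all genes tested. Those called lower include h1m, which is also in the oocyte and germ plasm list. The maintenance DNA methyltransferase gene DNMT1 had 274, 307 and 382 CPM at 24 hpf, against 1640, 1756, 1271, 1639 and 1286 CPM at 3.3 hpf (-2.28 ± 0.14). Its partner UHRF1 fell by 1.13 ± 0.17, and was not called with upper-quartile scaling (-0.79) or in the lower-numbered set (-0.99). The de novo methyltransferase gene dnmt3ba had 435, 533 and 620 CPM at 24 hpf and 81.1 to 185 CPM at 3.3 hpf (2.35 ± 0.23). Polycomb genes were among those that rose: JARID2 (ENSDARG00000060925) by 5.11 ± 0.49, cbx7a by 2.52 ± 0.42 and pcgf5a by 4.60 ± 0.62. EZH2 itself, which the mutants of the study lack, was not called, with 185 CPM at 24 hpf and 330 CPM at 3.3 hpf on average (-0.84, named after its value was seen).

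In some gene families the oocyte-type member fell while a relative rose or was not called. Of 11 families compared, the oocyte or maternal member was called lower in 9, beside 27.3% of all genes tested. Those 9 genes also belong to the oocyte or genome activation lists above, so their calls are not a separate result. The 0 hpf level was not used to assign members, and several counted as the later relative were also abundant in the egg. At 0 hpf CCNA2 averaged 1029 CPM, ZAR1L 389 CPM, npm1a 372 CPM and BTG2 280.5 CPM. The maternal member cdc25d averaged 1.565 CPM there, against 134 CPM for cdc25b. EIF4E1B, the oocyte cap-binding protein, averaged 0.416 CPM at 24 hpf and 59.4 CPM at 3.3 hpf, and EIF4E (ENSDARG00000077012) 50.1 and 8.64 CPM. WEE2 averaged 0.329 CPM at 24 hpf and 330 CPM at 3.3 hpf, and WEE1 81.0 and 28.6 CPM. The SoxB1 gene SOX3 averaged 191 CPM at 24 hpf and 28.7 CPM at 3.3 hpf, opposite to sox19b. For poly(A) binding, pabpn1l fell by 7.93 ± 0.36. PABPN1 rose by 0.79 ± 0.13 (edgeR, adjusted p = 8.4e-05), less than the fold change needed for a call. For nucleoplasmins, npm2b fell by 5.28 ± 0.38 and npm1a was not called.

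In 4 families both members fell. The log2 fold changes were -10.88 for CCNA1 and -2.52 for CCNA2, and -7.01 for CPEB1 and -2.55 for CPEB4 (ENSDARG00000056691). They were -10.35 for BTG4 and -1.2 for BTG2, and -4.64 for ZAR1 and -9.51 for ZAR1L. Although counted as the later relative, ZAR1L is itself in the oocyte and germ plasm list. CCNA2 kept 147 to 210 CPM at 24 hpf and CPEB4 17.1 to 25.8 CPM, whereas CCNA1 and CPEB1 reached at most 1.64 and 1.86 CPM. The DNA methyltransferase and Cdc25 families did not follow the pattern. DNMT3B (ENSDARG00000036791) was not called, DNMT3A (ENSDARG00000015566) rose by 3.41 ± 0.70 and DNMT3A (ENSDARG00000005394) was not called, while cdc25d rose by 1.82 ± 0.41 and cdc25b fell by 1.17 ± 0.38. The call of cdc25b was lost with upper-quartile scaling (-0.82) and without 3.3 hpf library 1 (-0.95) or 2 (-0.94).

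**Figure D5:**
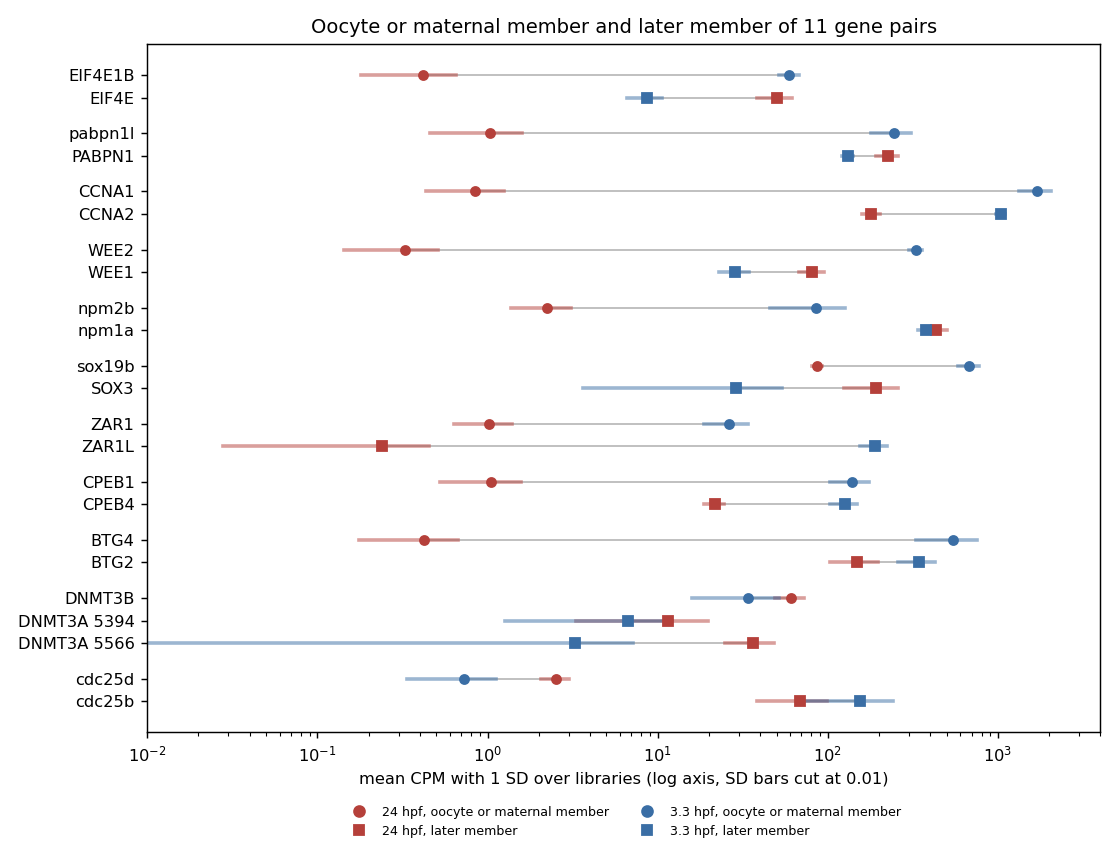
Mean CPM with 1 SD (log horizontal axis, bars cut at 0.01) at 24 hpf (red) and 3.3 hpf (blue) for the oocyte or maternal member (circles) and the later member (squares) of 11 gene families, with the last 4 digits of the identifier where 2 genes share a symbol. The red circle lies left of the blue circle in 9 families; WEE2 averaged 0.329 CPM at 24 hpf and 330 CPM at 3.3 hpf, and WEE1 averaged 81.0 CPM at 24 hpf and 28.6 CPM at 3.3 hpf.

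Ribosomal protein transcripts rose nearly throughout. Of 83 tested genes for cytosolic ribosomal proteins, 81 were called higher and none lower, beside 38.0% and 27.3% of all genes tested. Their median log2 fold change was 3.62, with a range of -0.20 to 5.32. The list took 6.66% to 10.0% of gene counts at 24 hpf, against 0.809% to 1.04% at 3.3 hpf. RPLP0 had 2464, 2723 and 5003 CPM at 24 hpf, and 159 to 246 CPM at 3.3 hpf. RPL3, RPS2 and rpl7a rose by 3.38 ± 0.18, 3.48 ± 0.22 and 3.47 ± 0.20. Of 13 transcripts of the mitochondrial genome 3 were called higher (23.1%), below the 38.0% of all genes tested. Their median log2 fold change was 0.61, and the number called ran from 1 to 5 over the 4 scalings. This count depended on the libraries and the strand. In the lower-numbered set 10 were called higher (median 1.15), in the higher-numbered set 1 (median -0.03), and with reverse-strand counts 11 (median 1.23). MT-CO1, a subunit of cytochrome oxidase, had 2260, 2960 and 5978 CPM at 24 hpf and 1328 to 2168 CPM at 3.3 hpf, and was not called. MT-CO2 and MT-CO3 rose by 1.35 ± 0.27 and 1.27 ± 0.33, and neither was called without 24 hpf libraries 1 and 2 (0.91 and 0.68) or in the higher-numbered set (0.91 and 0.72). MT-CYB was not called.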

How the data were processed

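RNA-seq libraries were made by the study from pooled whole wild-type embryos after ribosomal RNA depletion and read paired-end. The paper states that some 24 hpf libraries of each genotype were instead made with another kit and read single-end on another instrument. The labels do not name them by sample. The deposited files hold whole-number counts of reads per gene, which the authors obtained with STAR 2.5.2b (submitters' processing notes) on GRCz10 with Ensembl 87 annotation; the unstranded column was used. Counts of the 11 libraries were filtered with filterByExpr, scaled with TMM and tested with stage as the only term in edgeR 4.0.16 (quasi-likelihood, robust; R 4.3.3), with Benjamini-Hochberg adjustment. The fitting code was run on simulated counts in which few genes changed, equally in both directions, and no library sets were simulated. That check does not cover scaling or the stage-only model under the wide changes seen here. Tables and plots were made with Python 3.11.15, pandas 2.3.3, numpy 2.4.6 and matplotlib 3.10.9.

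Of 372 planned names of list members 361 were matched through the gene-name table. Some were matched with the zebrafish suffix removed or through a human orthologue symbol, and every gene of that symbol then entered the list. The planned names stmn1b, mitfa and crygn2 gave 2 genes each in this way, and tnni2a.4 gave 6. The exceptions named for STMN1, MITF and CRYGN come from such matches. The members and lists were chosen with earlier results of these data known. Kinases of ribosomal protein S6 and a binding protein, caught by the name pattern of the ribosomal list, were removed after their values were seen. Genes named were the 4 most abundant of each list, members called against the direction of most of their list, the 10 largest rises and falls with a symbol and without overlap, the 5 most abundant genes with at most 3 counts at the other stage, and both members of each family pair; other names are marked. A few genes that this rule names are not reported here. Intervals of ratios are exact 95% intervals and cover counting error only.

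Alternatives were DESeq2 1.42.0 and its size factors, library size alone, upper quartile, no filter, a test against a 2-fold change, the replicate number as a term, and libraries left out. The reverse-strand column, each set of libraries alone and the sets as a term were chosen after seeing the data. Deviations of same-numbered libraries correlated between -0.19 and 0.50 over 5 pairs. The value of -0.19 was that of number 3, whose libraries lie in different sets. Differently numbered libraries of the 2 stages also correlated within a set, at 0.17 to 0.47 in the lower-numbered and 0.27 to 0.43 in the higher-numbered set. The numbers were not taken as pairs. Sequences were not analysed here.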

Additional observations from a re-analysis of the deposited data

Results flagged for a closer look

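Of 283 values tested within a stage, 32 had a highest or lowest library set apart from the others by Dixon's criterion, where chance gives about 1 in 20. No explanation was tested for any of them.

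Library 2 of 24 hpf stood apart most often. It was highest for krt4 (32300 CPM), krt8 (2424 CPM), cyt1 (2285 CPM), he1.2 (694 CPM), XBP1 (425 CPM), RPLP0 (5003 CPM) and RPS2 (4277 CPM). It also had the highest share of gene counts on the epidermal list (3.52%) and on the hatching gland list (0.185%). It was lowest for the muscle gene atp2a1 (769 CPM) and the cardiac gene MYH6 (40.8 CPM).

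Library 1 of 24 hpf was highest for PROX1 (46.6 CPM), mki67 (1192 CPM), MT-CO1 (5978 CPM) and the share of counts on the mitochondrial genome (1.52%). Library 3 of 24 hpf was highest for COL2A1 (ENSDARG00000069093, 987 CPM), ndr1 (3.94 CPM), PABPN1 (291 CPM) and the share of counts on the other strand (6.26%), and lowest for FGB (49.7 CPM). Library 4 of 24 hpf was highest for pabpn1l (2.12 CPM).

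At 3.3 hpf, library 3 was highest for krt4 (8.75 CPM), GSC (29.4 CPM), ZAR1L (247 CPM) and the share of counts on the endodermal list (0.00104%), and lowest for krt5 (0.402 CPM). Library 4 was highest for COL9A2 (7.83 CPM) and for the share on the neural crest list (0.00577%). Library 2 was highest for YBX1 (230 CPM) and DNMT3A (ENSDARG00000005394, 16.3 CPM), library 5 was highest for dnmt3ba (185 CPM), and library 1 was lowest for CCNE1 (519 CPM).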

How the results depend on the processing

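The number of genes called higher lay between 6343 and 10412 and that of genes called lower between 3977 and 6025 over the other scalings, filters, tests and library sets. Leaving out 1 library gave 6553 to 7476 higher and 4950 to 5268 lower. With a log2 fold change of at least 2 required, the count of genes lower at 24 hpf was 2374 and that of genes higher at 24 hpf 5737. Calls split most unevenly by scaling, with 52.3% of calls higher under library size and 66.5% under upper quartile, against 58.2% under TMM. With the replicate block, 6899 genes were higher and 4906 lower, although the numbers were not taken as pairs.

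Of 148 named genes, 121 kept direction and call in all settings run for them. Of those that did not, most were small changes. STMN1 (ENSDARG00000004169) changed sign with upper quartile (0.17), without 24 hpf libraries 1 and 2 (0.013) and without libraries 1 to 3 (0.25), as did XBP1 with upper quartile (0.18) and in libraries 4 to 6 and 3 to 5 (0.018). In that set mki67 (-0.014), MT-CYB (-0.33), npm1a (-0.0032) and TOP2A (0.20) changed sign too. TOP2A also did so with DESeq2's size factors (0.082), its test (0.082), upper quartile (0.29) and reverse-strand counts (0.0083), and in 4 of the fits that left out 1 library, which ranged from -0.16 to 0.058. MT-CYB (-0.15) and DNMT3A (ENSDARG00000005394, -0.20) changed sign without 24 hpf libraries 1 to 3, npm1a with library size (-0.078), and blf in libraries 1 to 3 and 1 and 2 (1.65). The cause was not tested.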
